A study of Mus musculus with 18 samples.

Results

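The mitochondrial ribosome is described here through its protein genes, taken as every gene of the deposited table whose symbol starts with Mrpl or Mrps followed by a digit, with at least 10 fragments in at least 3 libraries and no library in which the quantification was left out. All 77 genes with such a symbol met this rule, of 24318 genes in the table. Of these, 48 are named for the large subunit (Mrpl) and 29 for the small subunit (Mrps). The cells were immortalised embryonic fibroblasts of the mouse, and polyadenylated RNA was read in 18 libraries, 3 in each of 6 groups. The first 3 groups were cells expressing T-N1G, a tethered heterodimer of the transcription factor Nrf1 (gene Nfe2l1) and the small Maf protein MafG, given for 12 h vehicle, 0.3 µM or 1.0 µM of MG132, an inhibitor of the proteasome. The other 3 groups were mock cells given the same treatments. Every group, the mock groups included, carried the genotype MafF-/-::MafG-/-::MafK-/- and so lacked the endogenous genes of all 3 small Mafs. These are the partners that Nrf1 and its relatives need to bind DNA. In the T-N1G cells MafG was supplied within the tethered heterodimer. The design asks how proteasome inhibition changes transcript levels with and without the tethered factor. Whether each line was a clone or a pool, and whether the libraries of a group were separate cultures, is not given in the sources used here, and the spread that the p-values rest on may therefore be technical.

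Mitochondria translate a small set of their own messenger RNAs, all for subunits of the respiratory chain and ATP synthase, on ribosomes of bacterial ancestry. The ribosomal RNAs are encoded by mitochondrial DNA, while every ribosomal protein is encoded in the nucleus, made in the cytosol and imported. The small subunit binds the messenger RNA and decodes it, and the large subunit forms the peptide bond and holds the exit tunnel near the inner membrane. Many of the proteins have bacterial counterparts and others are found only in mitochondria. Fibroblasts express them all the time, since the particle is needed wherever oxidative phosphorylation is.

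Depth was 18164382 to 21196909 fragments per library, and all 77 genes passed the expression filter, within 13258 genes tested. Mafg had 3079 to 69014 fragments in the T-N1G libraries and 6 to 25 in the mock libraries, and Nfe2l1 had 22206 to 350138 and 5565 to 8067. These ranges run over all 3 treatments, and both transcripts thus varied widely among the T-N1G libraries. The part of that variation in the responses given below was not tested. Replicates were least alike at 1.0 µM MG132. Over the 77 genes, the SD of log2 CPM (fragments scaled to library size with edgeR's trimmed mean of M values) had a median of 0.090, 0.072 and 0.157 in T-N1G cells under vehicle, 0.3 µM and 1.0 µM, and 0.062, 0.060 and 0.137 in mock cells. The libraries of that dose lay at similar distances from their groups. The median distance of a library from the mean of the other 2 of its group, over the 77 genes, was 0.173, 0.157 and 0.147 on the log2 scale for T-N1G libraries 1, 2 and 3 at 1.0 µM and 0.149, 0.161 and 0.149 for the mock libraries. Without the libraries numbered 3 at 1.0 µM the 77 genes gave 33 higher and 28 lower at 1.0 µM in T-N1G cells, 18 higher and 42 lower in mock cells, and 38 higher and 10 lower in the difference of the responses, against 32 and 30, 17 and 47, and 41 and 9 with them. Of the fibroblast markers, Col1a1 had 12527 to 61937 fragments per library and Vim 6648 to 67364, while Lum had 0 or 1 and Fap 1 to 23. Markers of other cell types were uneven. Ptprc of leukocytes had 0 to 14 fragments, Cd3e 0 to 2, Epcam of epithelium 0 to 7, Krt5 0 to 7, Myod1 of muscle 0 to 2 and Adipoq of fat 0 to 1. Others on the same lists were read at higher levels, with 33 to 96 fragments for Cd68, 2 to 120 for Csf1r, 296 to 1167 for the keratin Krt14, 69 to 1511 for the endothelial receptor Kdr and 21 to 165 for Acta1. The 4 endothelial markers summed to 5.22 to 6.998, 5.58 to 9.38 and 24.1 to 37.3 CPM in T-N1G cells under vehicle, 0.3 µM and 1.0 µM, and to 6.30 to 7.04, 18.5 to 25.9 and 62.8 to 82.3 CPM in mock cells. The 4 epithelial markers summed to 15.99 to 18.9, 26.7 to 30.3 and 17.5 to 32.8 CPM in T-N1G cells and to 17.5 to 20.7, 54.2 to 57.7 and 34.9 to 63.3 CPM in mock cells. The part of either sum in the results that follow was not tested. In bulk libraries fewer cells of a type and less RNA per cell cannot be told apart.

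The genes together held a small share of the transcriptome, and that share moved in different ways in the lines. It was 0.303 ± 0.012%, 0.335 ± 0.005% and 0.304 ± 0.007% of fragments in T-N1G cells under vehicle, 0.3 µM and 1.0 µM (SD, n = 3 each). In mock cells it was 0.333 ± 0.004%, 0.290 ± 0.004% and 0.258 ± 0.018%. The share in mock cells was thus lower at each higher dose, and in T-N1G cells it was highest at 0.3 µM. Summed per length, as the authors' FPKM (scaled for transcript length and library size), the 77 genes came to 3467 ± 174, 3667 ± 144 and 3471 ± 234 in T-N1G cells and to 3714 ± 77.1, 3109 ± 45.5 and 2902 ± 162 in mock cells. The large-subunit sum over the small-subunit sum was 1.96 ± 0.01, 1.73 ± 0.01 and 1.66 ± 0.07 in T-N1G cells, and 1.93 ± 0.02, 1.64 ± 0.01 and 1.73 ± 0.08 in mock cells. Relative to the small-subunit sum, the large-subunit sum was therefore lower under MG132 in both lines, and genes of high level weigh most in a sum. In T-N1G cells the median gene stood at 39.5, 43.7 and 43.0 FPKM in the large and 34.9, 38.2 and 36.1 FPKM in the small subunit. In mock cells it stood at 40.1, 34.1 and 31.4 FPKM and at 39.6, 39.0 and 36.1 FPKM. By the medians, the large subunit was thus lower relative to the small under MG132 in mock cells and not in T-N1G cells.

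Single genes differed widely in level although their proteins are needed in about equal number in the particle. Over the 18 libraries the median gene of the large subunit averaged 38.1 FPKM and that of the small subunit 39.7 FPKM. Mrpl54 was highest with 142.7 FPKM (95.6 to 202.0 over the libraries), followed by Mrpl20 with 113.3 and Mrpl52 with 107.8 FPKM. Mrpl57, Mrpl17 and Mrpl55 were lowest in the large subunit with 4.9, 6.3 and 7.2 FPKM. In the small subunit Mrps18c averaged 90.4, Mrps21 89.6 and Mrps22 71.6 FPKM, and Mrps25, Mrps14 and Mrps27 averaged 10.6, 10.9 and 19.9 FPKM. The order near the top was not fixed. Mrps21 stood at 154.9 ± 10.2, 69.2 ± 4.5 and 44.3 ± 13.97 FPKM in T-N1G cells under vehicle, 0.3 µM and 1.0 µM. Mrps22 stood at 34.9 ± 4.2, 95.0 ± 7.4 and 134.5 ± 7.2 FPKM in the same groups, so that the higher of these small-subunit genes under vehicle was the lower under either dose. In mock cells Mrps21 stood at 172.0 ± 6.7, 56.4 ± 2.3 and 41.1 ± 3.5 FPKM and Mrps22 at 40.3 ± 2.1, 61.1 ± 4.1 and 64.1 ± 5.1 FPKM. Level averaged over all 18 libraries had little relation to change. Spearman's rho between this mean FPKM and log2 fold change at 1.0 µM was 0.11 in T-N1G cells and 0.19 in mock cells. It was taken across the 77 genes, which are not independent. The mean includes the treated libraries, so rho does not show how change relates to the vehicle level, which was not tested. Of the 77 genes, 11 lie in a locus that overlaps another gene, among them Mrps25 with Nr2c2, Mrps6 with Slc5a3 and Mrpl48 with Rab6a, and their fragments may be shared with it, since the strand setting of the counting is not given in the sources used here.

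**Figure D1:**
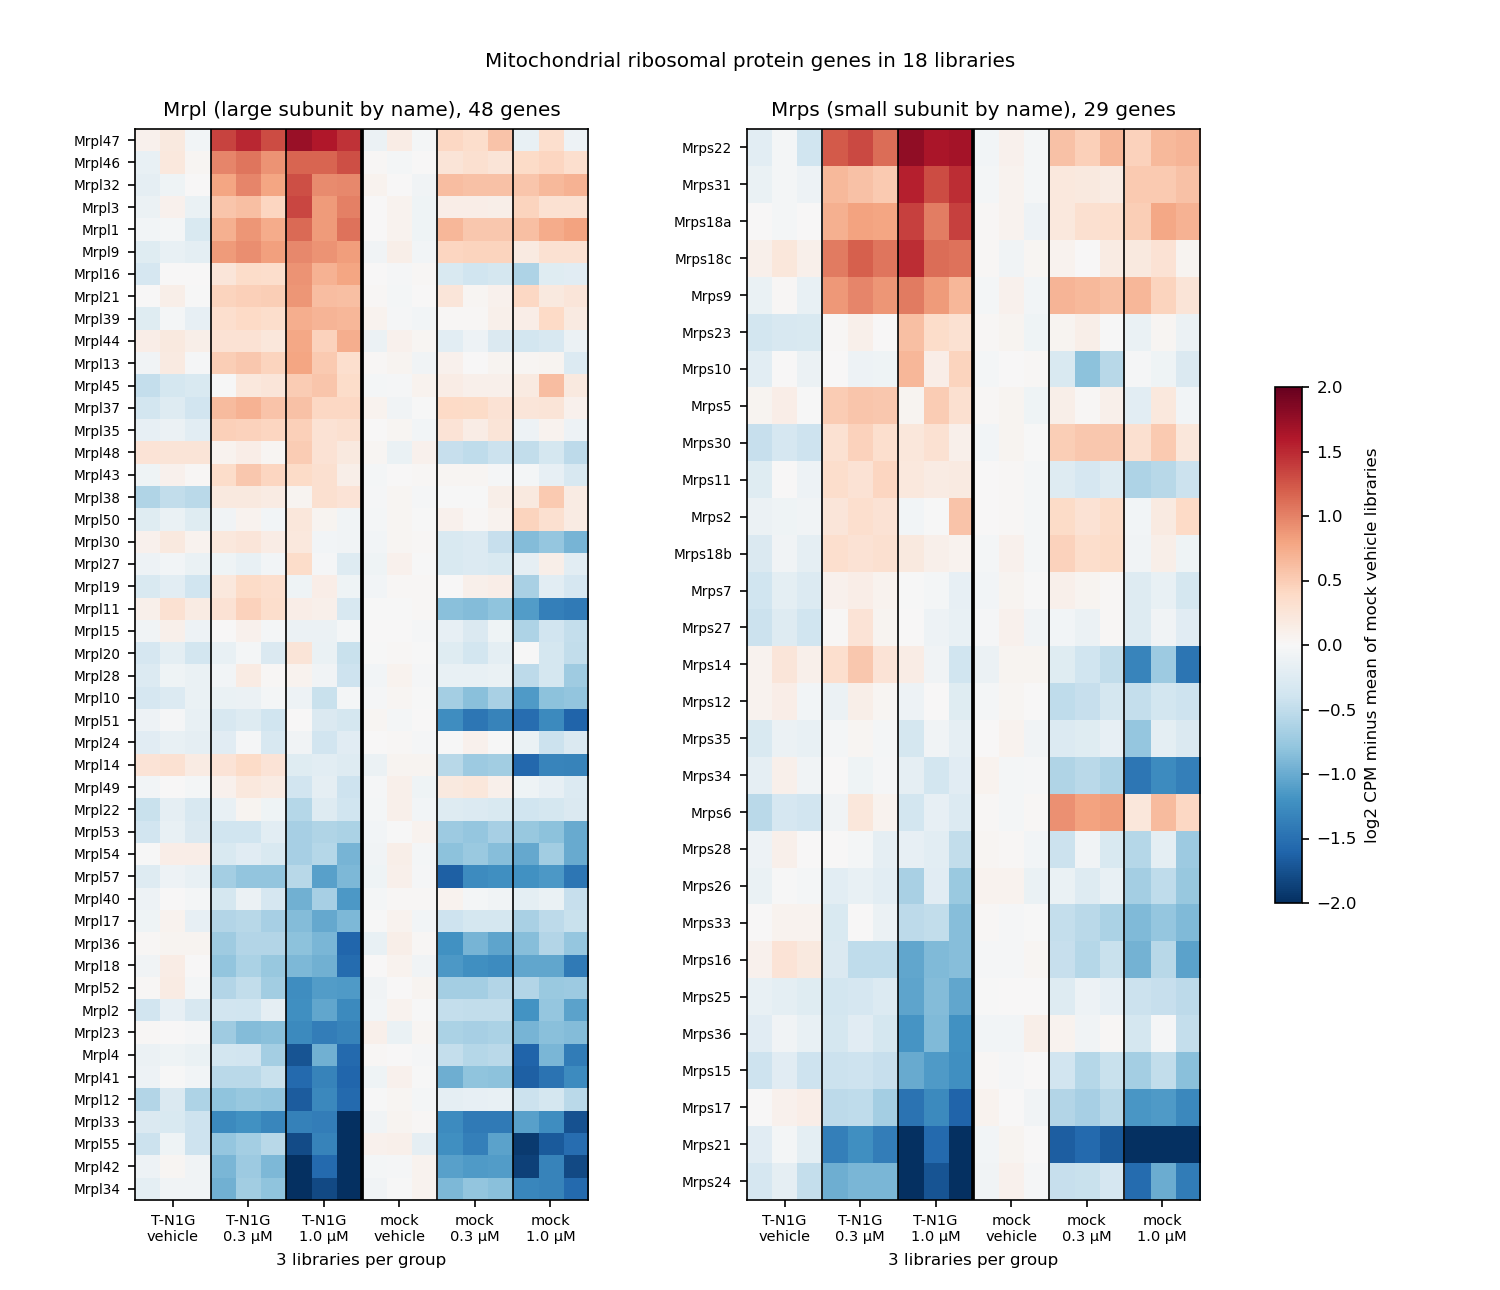
Log2 CPM of each of the 77 genes (rows) in each of the 18 libraries (columns), minus the mean of the 3 mock vehicle libraries, with T-N1G groups left of mock groups and rows sorted by level in T-N1G cells at 1.0 µM MG132. The colour scale ends at -2 and 2, and genes at either end of the order, such as Mrps22 and Mrpl34, moved in every library of a treated group.

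In T-N1G cells MG132 raised some of the genes and lowered others, and at 0.3 µM a larger share of the small-subunit genes was raised, a difference between subunits that was not tested. At 0.3 µM, 31 of 77 genes were higher and 17 lower, where 29.1% of all genes tested were higher and 30.3% lower (edgeR quasi-likelihood test, Benjamini-Hochberg adjusted p under 0.05, as for every call in the text). By subunit, 17 of 48 large-subunit genes were higher and 13 lower, and 14 of 29 small-subunit genes were higher and 4 lower. At 1.0 µM, 32 genes were higher and 30 lower, where 37.5% of all genes were higher and 38.9% lower. That split comprised 18 higher and 19 lower genes of the large subunit, and 14 higher and 11 lower genes of the small subunit. With totals alone as the scaling the split at 1.0 µM was 23 higher and 37 lower, a setting that moved the median of all genes by -0.14 on the log2 scale. Median log2 fold changes at 1.0 µM were -0.05 for the large and 0.15 for the small subunit, against -0.01 for all genes, and with totals alone -0.20 and 0.012. The small-subunit median was 0.09 and 0.07 without T-N1G replicate 2 or 3 at 1.0 µM, and the large-subunit median was -0.02 without either and 0.00 without T-N1G vehicle replicate 2.

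The largest rise in T-N1G cells was that of Mrps22, a small-subunit protein found only in mitochondria (mm9 9:98489149-98502098). It had 36.8, 41.6 and 32.6 CPM in the T-N1G vehicle libraries, 101, 108 and 92.5 CPM at 0.3 µM and 147, 133 and 135 CPM at 1.0 µM. All 6 treated libraries were above all 3 vehicle libraries, and the doses did not overlap either. The log2 fold change was 1.90 ± 0.093 (SE) at 1.0 µM, a 3.74-fold rise (adjusted p = 3.64e-12). Mrpl47, a large-subunit protein near the exit of the tunnel (mm9 3:32626418-32635677), had 15.6, 16.7 and 14.1 CPM under vehicle, 37.4, 41.8 and 36.1 CPM at 0.3 µM and 48.6, 44.6 and 39.8 CPM at 1.0 µM. Here too every treated library was above every vehicle library, and the doses overlapped. Its log2 fold change was 1.31 ± 0.122 at 0.3 µM (adjusted p = 4.72e-08) and 1.52 ± 0.122 at 1.0 µM (adjusted p = 2.51e-09). Mrps31, also found only in mitochondria, had 22.6, 24.1 and 23.2 CPM under vehicle, 38.7, 37.3 and 35.5 at 0.3 µM and 73.0, 60.9 and 69.0 at 1.0 µM, which do not overlap in any pair of groups. It rose 2.91-fold at 1.0 µM (log2 fold change 1.54 ± 0.075, adjusted p = 3.32e-12). Mrpl46, Mrpl1, whose bacterial counterpart forms a mobile stalk of the large subunit, and Mrpl32, which is processed by the m-AAA protease on import, rose by 1.17, 1.16 and 1.16 on the log2 scale at 1.0 µM. Mrpl9 and Mrps9, both with bacterial counterparts, had log2 fold changes of 1.06 and 0.99 at 0.3 µM.

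Genes that fell in T-N1G cells included many of the shortest proteins. Mrpl34, a counterpart of a very small basic protein of the bacterial large subunit (mm9 8:73988824-73989652), had 23.0, 24.9 and 24.99 CPM under vehicle, 13.6, 16.3 and 15.0 CPM at 0.3 µM and 4.97, 7.50 and 5.20 CPM at 1.0 µM. The groups did not overlap, and at 1.0 µM the gene was 4.12-fold lower than under vehicle (log2 fold change -2.04 ± 0.128, adjusted p = 9.24e-11). Mrpl42, found only in mitochondria, had 77.6, 85.3 and 79.2 CPM under vehicle, 44.1, 50.1 and 44.5 at 0.3 µM and 17.9, 28.2 and 15.8 at 1.0 µM. Its log2 fold change at 1.0 µM was -1.97 ± 0.162 (adjusted p = 4.82e-09). In the small subunit Mrps21, Mrps24 and Mrps17, all with bacterial counterparts, fell by 1.85, 1.84 and 1.53 on the log2 scale at 1.0 µM.

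In mock cells MG132 lowered most of the genes that changed. At 0.3 µM, 15 of 77 genes were higher and 36 lower, where 25% of all genes tested were higher and 28.1% lower. At 1.0 µM, 17 were higher and 47 lower, where 32.4% of all genes were higher and 37.4% lower. In the large subunit 11 of 48 genes were higher and 31 lower at 1.0 µM, and in the small subunit 6 of 29 were higher and 16 lower. Median log2 fold changes at 1.0 µM were -0.41 for the large and -0.27 for the small subunit, against -0.04 for all genes. Without the libraries numbered 3 at 1.0 µM the small-subunit median was -0.14, and without mock replicate 1 at 1.0 µM it was -0.18.

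**Figure D2:**
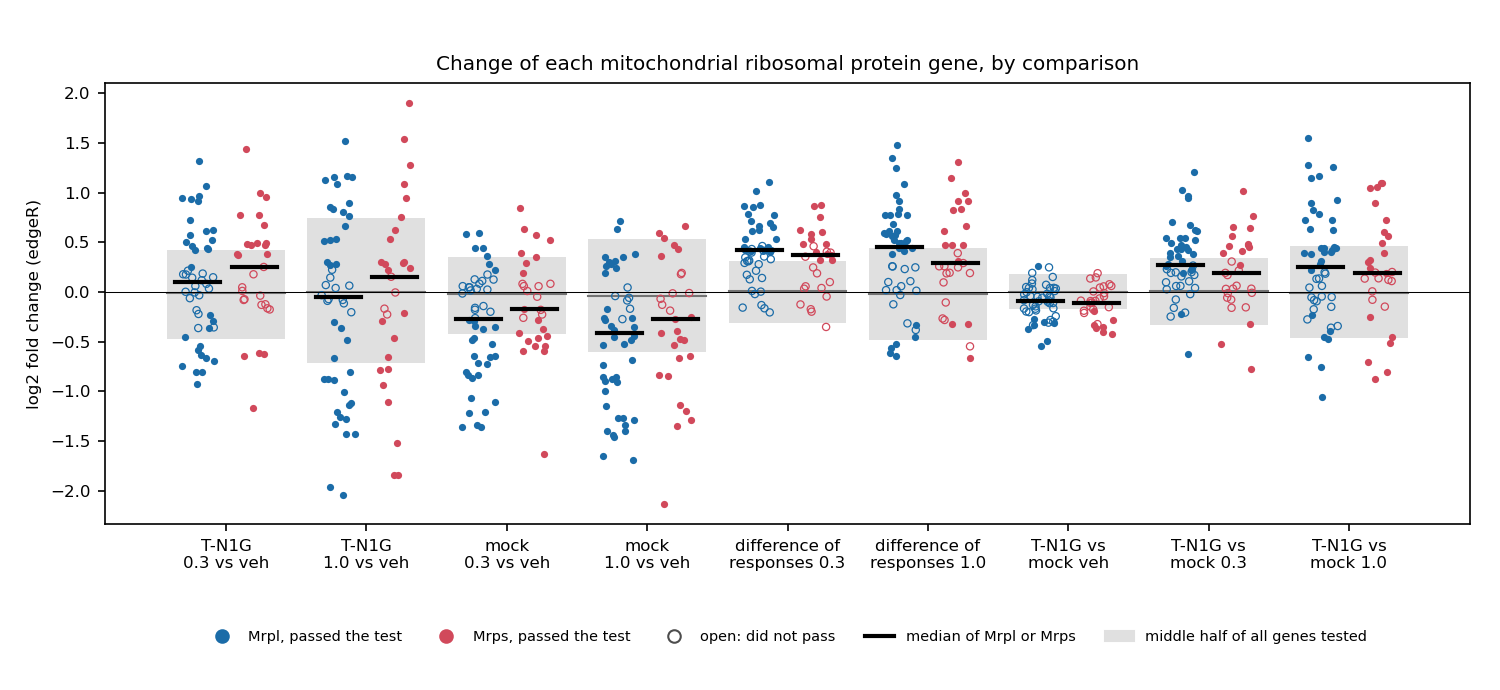
Log2 fold change of each gene in 9 comparisons, large-subunit genes in blue and small-subunit genes in red, filled where the test was passed and open where not. Black bars are the medians of each subunit and grey boxes the interquartile range of all 13258 genes tested; both subunit medians lie above 0 in the differences of responses at either dose.

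The steepest fall in mock cells was that of Mrps21, the counterpart of a small protein of the bacterial small subunit (mm9 3:95666574-95674542). It had 34.7, 37.4 and 36.2 CPM in the mock vehicle libraries, 11.5, 12.2 and 11.3 CPM at 0.3 µM and 8.96, 7.97 and 7.68 CPM at 1.0 µM. The groups did not overlap, and at 1.0 µM the level was 4.40-fold lower than under vehicle (log2 fold change -2.14 ± 0.143, adjusted p = 6e-10). Mrpl51, a protein found only in mitochondria (mm9 6:125142217-125144410), had 81.1, 76.7 and 79.7 CPM under vehicle, 33.3, 29.1 and 31.4 CPM at 0.3 µM and 27.5, 32.7 and 26.2 CPM at 1.0 µM. Both doses lay far below vehicle and overlapped each other, with log2 fold changes of -1.34 ± 0.097 and -1.46 ± 0.098 (adjusted p = 5.66e-09 and 6.33e-10). Mrpl55 and Mrpl42, both also found only in mitochondria, fell by 1.69 and 1.65 on the log2 scale at 1.0 µM, and Mrps34 by 1.35. Among the genes that rose in mock cells at 1.0 µM, Mrpl1 had a log2 fold change of 0.71, Mrps18a of 0.66, Mrpl32 of 0.63 and Mrps22 of 0.60.

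Setting each gene's call in T-N1G cells beside its call in mock cells, which share no library, gave 15 genes higher in both lines (19.5%, against 17.1% of all 13258 genes) and 16 lower in both (20.8%, against 19.4%) at 0.3 µM, shares near those of all genes. A further 13 genes were higher in T-N1G cells and not called in mock cells (16.9%, against 10.2% of all genes), and 17 were not called in T-N1G cells and lower in mock cells (22.1%, against 6.97%). Mrpl16, Mrpl22 and Mrps11 were higher in T-N1G cells and lower in mock cells, and no gene was lower in T-N1G cells and higher in mock cells. Mrpl12 was lower in T-N1G cells and not called in mock cells, and 12 genes were called in neither line. At 1.0 µM, 16 genes were higher in both lines (20.8%, against 23.8% of all genes) and 30 lower in both (39%, against 27.8%). Another 11 were higher in T-N1G cells and not called in mock cells (14.3%, against 9.96%), and 12 were not called in T-N1G cells and lower in mock cells (15.6%, against 5.79%). Mrpl16, Mrpl19, Mrpl44, Mrps7 and Mrps11 were then higher in T-N1G cells and lower in mock cells. Mrps6 was not called in T-N1G cells and higher in mock cells, and Mrpl20 and Mrpl27 were called in neither line. A call in T-N1G cells and none in mock cells does not show a difference, which the next comparison tests.

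The difference of the responses, T-N1G minus mock, was positive for most of the genes at both doses. At 0.3 µM the T-N1G response was higher for 38 of 77 genes and lower for 0, where 14.2% of all genes tested had a higher and 11% a lower response. At an unadjusted p under 0.05 the edgeR test gave 51 genes higher and 1 lower, and DESeq2 at an adjusted p under 0.05 gave 38 higher and 0 lower. At 1.0 µM the T-N1G response was higher for 41 genes and lower for 9, where 22.9% of all genes had a higher and 22.1% a lower response. The genes with a higher response were 24 of 48 large-subunit and 14 of 29 small-subunit genes at 0.3 µM, and 28 and 13 at 1.0 µM. The median difference was 0.42 for the large and 0.37 for the small subunit at 0.3 µM, against 0.00 for all genes, and 0.45 and 0.29 at 1.0 µM, against -0.02 for all genes. Without mock replicate 1 at 1.0 µM the small-subunit median difference at that dose was 0.19. The count of genes with a lower response at 0.3 µM was 1 without T-N1G replicate 2 at 0.3 µM, or without mock replicate 1 or 2 at 1.0 µM. Among the 66 genes whose locus overlaps no other gene, 33 had a higher and 0 a lower response at 0.3 µM, and 35 and 8 at 1.0 µM.

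**Figure D3:**
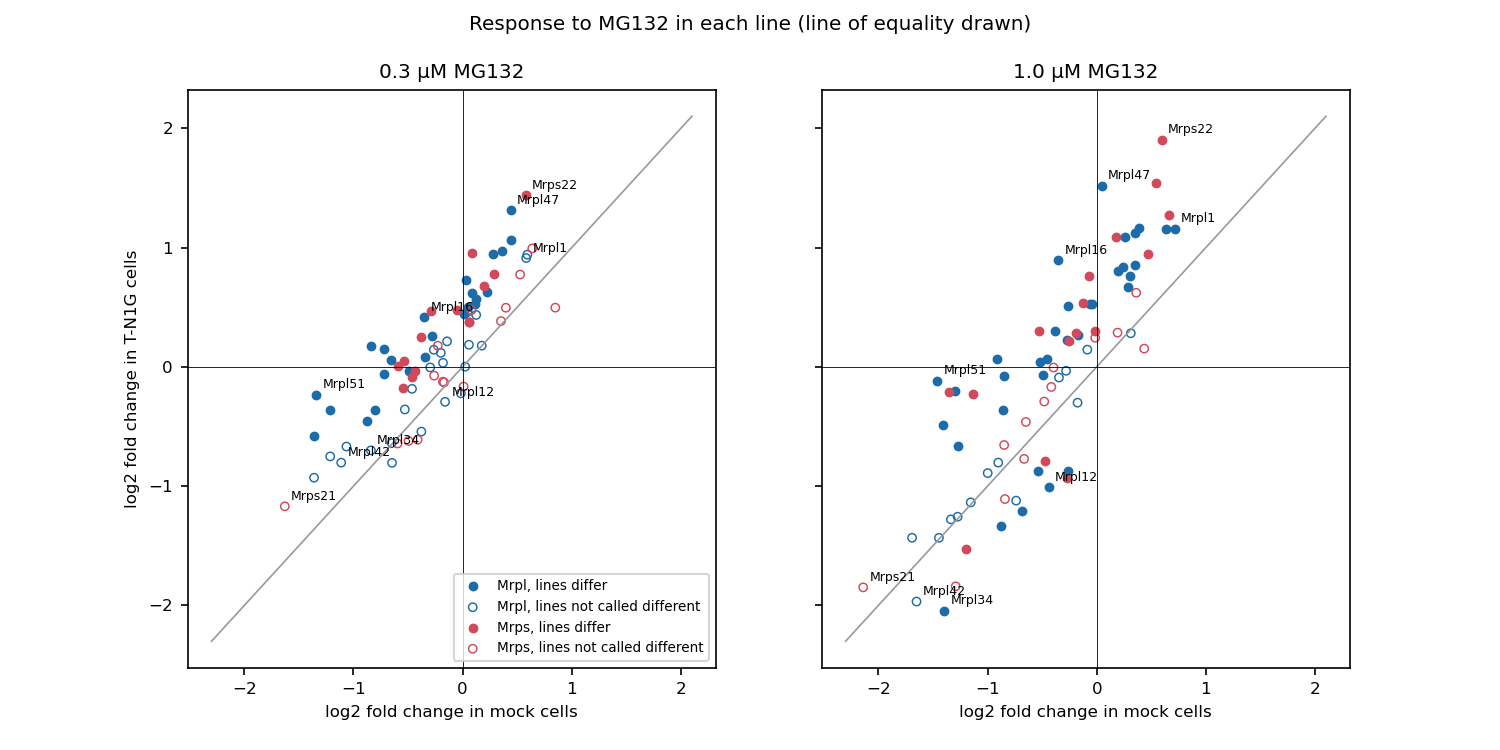
Log2 fold change to MG132 in T-N1G cells (vertical) against that in mock cells (horizontal) for the 77 genes at 0.3 µM and 1.0 µM, filled where the difference of responses passed the test. Most points lie above the line of equality at 0.3 µM, where 38 are filled above it and 0 below, and at 1.0 µM 41 are filled above it and 9 below.

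Mrpl51 and Mrpl11 had the largest differences at 0.3 µM, and both were genes that fell in mock cells and held their level better with T-N1G. Mrpl51 had 74.1, 78.1 and 71.5 CPM in T-N1G cells under vehicle, 63.6, 66.5 and 60.2 CPM at 0.3 µM and 79.9, 65.0 and 61.7 CPM at 1.0 µM, against the much lower treated levels given above for mock cells. No treated T-N1G library came near a treated mock library, and the responses differed by 1.11 ± 0.135 at 0.3 µM (adjusted p = 1.07e-05) and 1.34 ± 0.136 at 1.0 µM (adjusted p = 3.72e-07) on the log2 scale. Mrpl47 had the largest difference at 1.0 µM, 1.48 ± 0.175 (adjusted p = 2.38e-06), with 13.5, 16.3 and 14.3 CPM in mock cells under vehicle, 19.5, 18.7 and 21.7 CPM at 0.3 µM and 13.2, 18.5 and 13.7 CPM at 1.0 µM. In mock cells it was thus higher than vehicle at 0.3 µM and not called at 1.0 µM (log2 fold change 0.04, adjusted p = 0.77). Mrps22 rose in mock cells too, with 41.5, 45.5 and 41.8 CPM under vehicle, 64.0, 59.7 and 68.2 at 0.3 µM and 58.7, 67.0 and 68.7 at 1.0 µM, and its responses differed by 1.31 ± 0.129 at 1.0 µM (adjusted p = 2.89e-07).

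Mrpl16, the counterpart of a bacterial protein near the catalytic centre of the large subunit (mm9 19:11844904-11849436), moved in opposite directions. It had 27.1, 34.6 and 34.4 CPM in T-N1G cells under vehicle, 40.8, 44.0 and 43.6 at 0.3 µM and 63.7, 55.4 and 59.4 at 1.0 µM. In mock cells it had 34.5, 33.7 and 34.7 CPM under vehicle, 27.8, 25.9 and 26.8 at 0.3 µM and 22.4, 28.9 and 29.2 at 1.0 µM. The lines overlapped under vehicle and were apart at both doses, and the log2 fold change at 1.0 µM was 0.89 ± 0.102 in T-N1G cells (adjusted p = 2.78e-07) and -0.35 ± 0.104 in mock cells (adjusted p = 0.0057). Mrps34 of the small subunit (mm9 17:25032064-25033218) showed another form. It had 20.7, 24.9 and 22.2 CPM in T-N1G cells under vehicle, 23.4, 21.9 and 23.0 at 0.3 µM and 20.5, 18.2 and 19.9 at 1.0 µM, a narrow range, with log2 fold changes of 0.01 (not called) and -0.21. In mock cells it had 24.4, 22.7 and 22.8 CPM under vehicle, 15.3, 15.96 and 15.1 at 0.3 µM and 8.57, 9.72 and 9.07 at 1.0 µM. Each mock dose lay below the last, and the responses differed by 1.14 ± 0.124 at 1.0 µM (adjusted p = 8.74e-07). Mrps14 also fell in mock cells, with log2 fold changes of -0.38 and -1.14, and its difference of 0.63 at 0.3 µM was called at an adjusted p of 0.0409, close to the threshold.

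The 9 genes with a lower T-N1G response at 1.0 µM all fell in both lines and fell further with T-N1G. Mrpl34 had 25.1, 26.2 and 27.7 CPM in mock cells under vehicle, 14.05, 15.3 and 14.8 at 0.3 µM and 10.6, 10.4 and 8.97 at 1.0 µM. At 0.3 µM the lines overlapped, and at 1.0 µM every T-N1G library was below every mock library, with a difference of responses of -0.64 ± 0.175 (adjusted p = 0.00599). Mrpl40, Mrpl12 and Mrpl52 had differences of -0.61, -0.57 and -0.53. In the small-subunit names Mrps36 had -0.66, Mrps17 -0.33 and Mrps25 -0.32. Mrps36, named as a ribosomal protein, is known as a subunit of the 2-oxoglutarate dehydrogenase complex. It had 21.5, 23.8 and 22.6 CPM in T-N1G cells under vehicle, 19.5, 21.4 and 19.6 at 0.3 µM and 11.1, 13.6 and 10.8 at 1.0 µM, whereas mock cells kept 19.7, 24.7 and 17.99 CPM at 1.0 µM.

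**Figure D4:**
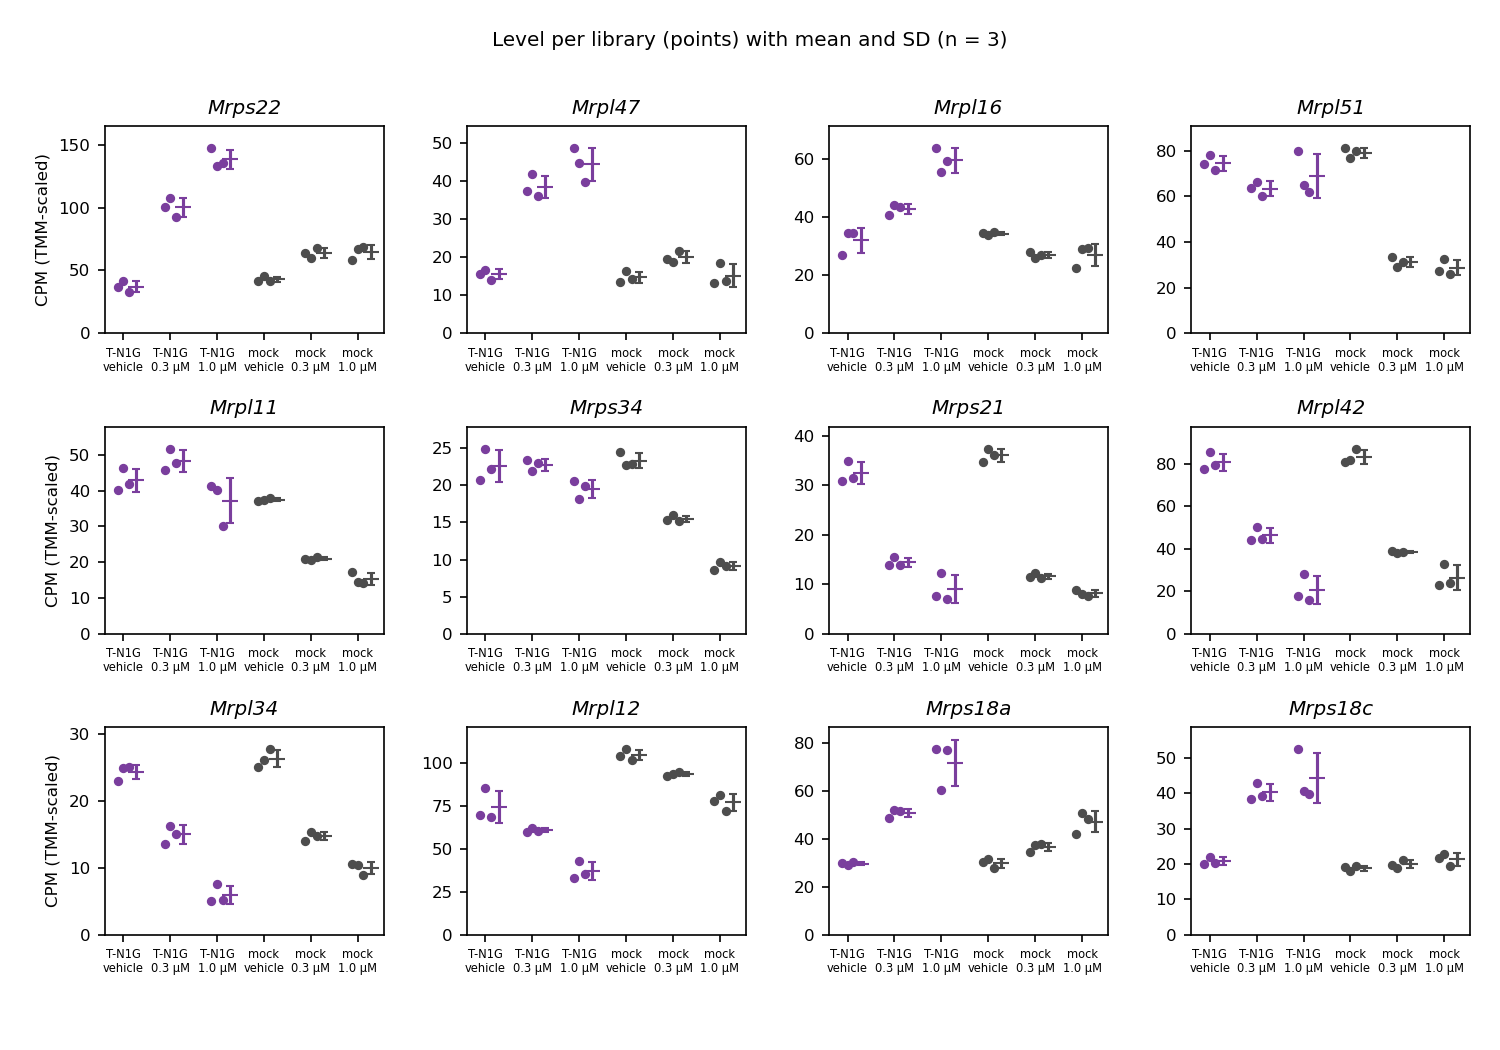
CPM per library (points) with mean and SD (n = 3) for 12 genes in T-N1G cells (purple) and mock cells (grey) under vehicle, 0.3 µM and 1.0 µM MG132. Mrps22 and Mrpl47 were highest in T-N1G cells at 1.0 µM, Mrpl51, Mrpl11 and Mrps34 were low in treated mock cells alone among the groups, and Mrps21 and Mrpl42 were low in all treated groups.

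The proteins of the factor-binding stalk of the large subunit did not move together. Mrpl10 and Mrpl12 form the stalk, to which translation factors dock, and Mrpl11 sits at its base. Mrpl11 had 40.2, 46.3 and 41.9 CPM in T-N1G cells under vehicle, 45.7, 51.7 and 47.7 at 0.3 µM and 41.3, 40.3 and 30.0 at 1.0 µM. In mock cells it had 37.1, 37.4 and 37.9 CPM under vehicle, 21.0, 20.6 and 21.5 at 0.3 µM and 17.3, 14.5 and 14.1 at 1.0 µM, so that treated mock libraries were all below every other library. Its responses differed by 1.01 ± 0.149 and 1.09 ± 0.152 (adjusted p = 7.4e-05 and 1.42e-05). Mrpl10 had 50.2, 52.6 and 58.1 CPM in T-N1G cells under vehicle, 57.9, 58.7 and 61.6 at 0.3 µM and 59.3, 46.8 and 62.0 at 1.0 µM, and in mock cells 62.2, 65.3 and 63.2, then 39.7, 35.6 and 40.3, then 28.9, 35.9 and 36.7 CPM. Like Mrpl11 it fell in mock cells, and its responses differed by 0.87 ± 0.144 and 0.97 ± 0.145. Mrpl12 fell in both lines at 1.0 µM, and further with T-N1G. It had 69.7, 85.4 and 68.5 CPM in T-N1G cells under vehicle, 59.9, 62.0 and 60.6 at 0.3 µM and 32.9, 42.9 and 35.4 at 1.0 µM, and in mock cells 104, 108 and 102, then 92.6, 93.7 and 94.7, then 77.9, 81.6 and 72.0 CPM. It was lower in T-N1G than in mock cells under every treatment, by 0.49, 0.62 and 1.06 on the log2 scale under vehicle, 0.3 µM and 1.0 µM (adjusted p = 0.00106, 2.23e-05 and 2.35e-08). Mrpl12 lies on chromosome 11, and genes of chromosomes 4 and 11 were in general lower in T-N1G cells, as given below.

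The Mrps18 paralogs, which descend from 1 bacterial protein and occupy different places in the particle, responded differently. Mrps18a, placed in the large subunit in mammalian structures, had 29.9, 28.9 and 30.2 CPM in T-N1G cells under vehicle, 48.8, 52.1 and 51.5 at 0.3 µM and 77.5, 60.5 and 77.3 at 1.0 µM. In mock cells it had 30.4, 31.5 and 27.8 CPM under vehicle, 34.7, 37.3 and 37.9 at 0.3 µM and 42.2, 51.0 and 48.4 at 1.0 µM. It rose in both lines, by 1.27 ± 0.095 in T-N1G and 0.66 ± 0.094 in mock cells at 1.0 µM on the log2 scale, and the responses differed by 0.61 (adjusted p = 0.00106). Mrps18c had 20.1, 22.0 and 20.2 CPM in T-N1G cells under vehicle, 38.4, 43.1 and 39.3 at 0.3 µM and 52.4, 40.6 and 39.7 at 1.0 µM, and in mock cells 19.0, 17.96 and 19.3, then 19.6, 18.9 and 21.1, then 21.5, 22.8 and 19.4 CPM. With T-N1G it rose by 0.95 and 1.09 on the log2 scale. In mock cells its value of 0.18 at 1.0 µM was not called by edgeR (adjusted p = 0.13), and DESeq2 called it higher (adjusted p = 0.0323). Mrps18b had 42.8, 49.6 and 46.1 CPM in T-N1G cells under vehicle, 66.1, 63.9 and 65.1 at 0.3 µM and 59.5, 56.1 and 54.8 at 1.0 µM, and in mock cells 50.6, 55.1 and 50.9, then 71.9, 66.2 and 67.9, then 49.8, 56.5 and 49.0 CPM. It rose at 0.3 µM in both lines, by 0.50 in T-N1G and 0.40 in mock cells, with a difference of 0.10 ± 0.104 (adjusted p = 0.53). At 1.0 µM its log2 fold change was 0.30 in T-N1G cells, called higher, and -0.01 in mock cells, not called, with a called difference of 0.31. The calls in T-N1G cells and in the difference at that dose were lost under at least 1 alternative processing.

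The 6 ribosomal proteins with other symbols were described beside these genes. Ptcd3, a small-subunit protein, had log2 fold changes of 1.02 and 1.45 at 0.3 µM and 1.0 µM in T-N1G cells and of 0.29 and 0.19 in mock cells, the last not called, with differences of 0.73 and 1.26. Ict1, a large-subunit protein that can release stalled chains, had values of 0.05 and -0.10 in T-N1G cells, neither called, and fell in mock cells by 0.47 and 0.86, with differences of 0.52 and 0.76. Dap3, a GTP-binding protein of the small subunit, fell at 1.0 µM by 0.50 in T-N1G and 0.25 in mock cells, and its differences of -0.22 and -0.25 were not called. Chchd1 of the small subunit fell by 0.99 in T-N1G and 0.90 in mock cells at 1.0 µM, and Gadd45gip1 of the large subunit by 0.70 and 0.47. Aurkaip1 had a called difference of 0.32 at 1.0 µM.

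Under vehicle fewer of these genes were called between the lines than with MG132, and the differences called were nearly all lower in T-N1G cells. Of 77 genes, 1 was higher and 14 lower in T-N1G cells, where 8.43% of all genes tested were higher and 7.72% lower. The count of higher genes was 0 to 2 leaving out single libraries of any group. The count of lower genes was 7 without T-N1G vehicle replicate 1, 9 without mock vehicle replicate 2 and 27 with the vehicle libraries fitted alone. Among the 66 genes whose locus overlaps no other gene, 0 were higher and 8 lower. Mrps6, Mrps27 and Mrpl48, given below, lie in loci that overlap another gene. Mrpl38, found only in mitochondria (mm9 11:115993130-116000182), had 29.3, 31.7 and 30.5 CPM in T-N1G cells and 43.7, 45.6 and 43.9 CPM in mock cells. The lines did not overlap, with a log2 fold change of -0.54 ± 0.090 (adjusted p = 0.000415). Mrps6 had 18.6, 21.5 and 20.8 CPM in T-N1G cells and 27.5, 26.3 and 27.7 CPM in mock cells, a log2 fold change of -0.42 ± 0.101 (adjusted p = 0.00787). Mrps30, which lies in the large subunit in mammalian structures, Mrpl45, near the tunnel exit, Mrps27, Mrps15 and Mrpl37 were lower by 0.41, 0.38, 0.36, 0.35 and 0.33 on the log2 scale. Mrpl48 was the gene called higher, at 0.26 ± 0.086 (adjusted p = 0.0433).

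Many of these lower genes lie on chromosomes 4 and 11, where genes in general were lower in T-N1G cells. Of the 14 genes on these chromosomes 8 were called lower (57.1%) and all 14 had a negative value, with a median log2 fold change of -0.32. Of the 63 on other chromosomes 6 were called lower (9.52%), with a median of -0.06. Among all genes tested, 458 of 1944 on chromosomes 4 and 11 were lower (23.6%), and 565 of 11314 elsewhere (4.99%). The chromosomes and the line cannot be told apart in this comparison, and their part in it was not tested further. The differences of responses, which set each line against its own vehicle, were higher for 9 of the 14 genes on chromosomes 4 and 11 and for 29 of the 63 others at 0.3 µM, where 14.2% of all genes were higher both on these chromosomes and elsewhere. At 1.0 µM they were higher for 7 of the 14 and 34 of the 63, where 23% of all genes on these chromosomes and 22.9% elsewhere were higher.

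With MG132 the T-N1G levels were more often above the mock levels. At 0.3 µM, 40 of 77 genes were higher and 5 lower in T-N1G than in mock cells, where 25% of all genes tested were higher and 23.5% lower. At 1.0 µM, 39 were higher and 13 lower, where 30.7% of all genes were higher and 31.3% lower. On chromosomes 4 and 11, 4 of the 14 genes were higher and 2 lower at 0.3 µM, and 4 and 4 at 1.0 µM. Of the 63 others, 36 were higher and 3 lower at 0.3 µM, and 35 and 9 at 1.0 µM. Of all genes on chromosomes 4 and 11, 14.9% were higher and 38.1% lower at 0.3 µM, and 21.9% and 42.9% at 1.0 µM. Elsewhere the shares were 26.7% and 21% at 0.3 µM, and 32.2% and 29.3% at 1.0 µM. The median log2 fold change was 0.27 for the large and 0.19 for the small subunit at 0.3 µM, and 0.25 and 0.19 at 1.0 µM, against 0.01 and -0.01 for all genes. Mrpl11 led at 0.3 µM with 1.20 and Mrpl47 at 1.0 µM with 1.55. Mrpl14, which docks an assembly factor on the large subunit, had 28.8, 31.1 and 28.8 CPM in T-N1G cells and 16.3, 14.4 and 14.8 CPM in mock cells at 0.3 µM, with no overlap. The genes lower in T-N1G cells at 0.3 µM were Mrps6, Mrpl12, Mrps24, Mrps36 and Mrpl17, by 0.77, 0.62, 0.52, 0.32 and 0.22 on the log2 scale, and the count was 3 without T-N1G replicate 1 or 3 or mock replicate 3 at 0.3 µM. Of these genes, Mrpl12 and Mrps24 lie on chromosome 11. Mrps6 had 25.9, 31.7 and 28.4 CPM in T-N1G cells and 51.0, 47.6 and 48.3 CPM in mock cells at 0.3 µM.

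Changes within each line ran with the length of the protein. Coding length was taken from the GRCm38 annotation for all 77 genes and ran over 195 to 1326 bases, with medians of 570 bases in the large and 588 in the small subunit. Across the 77 genes Spearman's rho between coding length and log2 fold change was 0.65 at 0.3 µM and 0.63 at 1.0 µM in T-N1G cells, and 0.60 and 0.56 in mock cells. The genes of a set are not independent, and they share the same libraries. Over 12245 genes tested that had a coding length, the corresponding rho was 0.04 and 0.11 in T-N1G cells and 0.11 and 0.13 in mock cells. A relation of the same direction was seen in other gene sets. For 81 cytosolic ribosomal protein genes rho was 0.46 and 0.37 in T-N1G cells and 0.48 and 0.41 in mock cells, and for 76 genes of oxidative phosphorylation it was 0.38 and 0.33 in T-N1G cells and 0.46 and 0.33 in mock cells. Whether the sets differ was not tested. At 1.0 µM the 26 genes with the shortest coding sequences, up to 486 bases, had a median log2 fold change of -0.66 in T-N1G cells, with 3 higher and 16 lower, and of -0.86 in mock cells, with 2 higher and 20 lower. The 26 longest, above 755 bases, had a median of 0.57 in T-N1G cells, with 19 higher and 3 lower, and of 0.12 in mock cells, with 12 higher and 9 lower. All genes in the same length classes had medians of -0.39 and 0.03 in T-N1G cells and -0.45 and 0.00 in mock cells. Of all 896 genes in the shortest class 23.7% were higher and 53.1% lower in T-N1G cells, against 11.5% and 61.5% of the 26, and 18.6% and 55.2% in mock cells, against 7.69% and 76.9%. Of all 9909 genes in the longest class 39.1% were higher and 37.9% lower in T-N1G cells, against 73.1% and 11.5% of the 26, and 34.3% and 35.7% in mock cells, against 46.2% and 34.6%. The difference of responses had a weaker relation to length, with a rho of 0.13 at 0.3 µM and 0.36 at 1.0 µM.

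**Figure D5:**
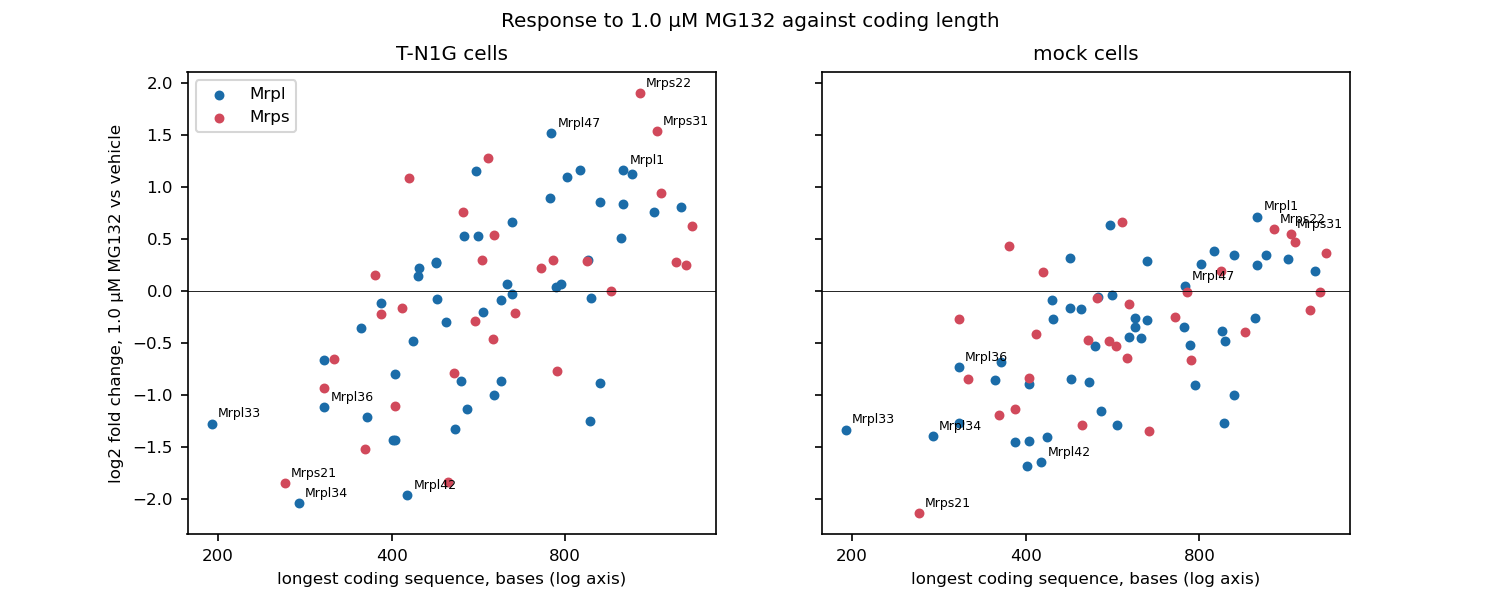
Log2 fold change at 1.0 µM MG132 against coding length in bases (log axis) for the 77 genes, in T-N1G cells (left) and mock cells (right). The short genes Mrpl33, Mrpl34, Mrpl36 and Mrps21 lie below 0 in both lines, the short gene Mrps6 lies above it in both, and Mrps22, Mrps31 and Mrpl1 at the long end lie above it.

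By subunit, the contrast at 1.0 µM was small beside the contrast by length, and it depended on which names were counted. Mrps18a and Mrps30 are named for the small subunit and lie in the large one in mammalian structures. With both moved, the medians at 1.0 µM were 0.00 for the large and -0.01 for the small subunit in T-N1G cells, in place of -0.05 and 0.15, and -0.37 and -0.40 in mock cells, in place of -0.41 and -0.27. The higher and lower counts were then 20 and 19 of 50 in the large and 12 and 11 of 27 in the small subunit in T-N1G cells. Without Mrps36 as well, the small-subunit median at 1.0 µM was 0.07 in T-N1G cells and -0.41 in mock cells. At 0.3 µM in T-N1G cells, with the 2 names moved, 19 of 50 large-subunit genes were higher and 13 lower (38% and 26%). In the small subunit 12 of 27 were higher and 4 lower (44.4% and 14.8%), where 29.1% and 30.3% of all genes were. The difference between subunits itself was not tested.

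Promoters of the genes are shown for a riser in both lines (Mrps22), a gene that fell in mock cells and less with T-N1G (Mrpl51), a gene that fell in both (Mrps21) and a gene that moved in opposite directions (Mrps11). Each is the 250 bases before the RefSeq start, 5′ to 3′ on the gene's strand, from RefSeq on GRCm38.p6, with the letters of a motif match in capitals. They lie at chr9:98601680-98601929 on the minus strand, chr6:125191950-125192199 on the plus strand, chr3:95871515-95871764 on the minus strand and chr7:78782881-78783130 on the plus strand, in that order.
Mrps22: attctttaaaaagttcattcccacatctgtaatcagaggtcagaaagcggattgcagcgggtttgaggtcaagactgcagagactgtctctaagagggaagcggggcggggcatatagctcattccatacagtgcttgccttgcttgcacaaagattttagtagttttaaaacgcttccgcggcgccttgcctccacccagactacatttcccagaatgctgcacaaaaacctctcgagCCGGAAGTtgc
Mrpl51: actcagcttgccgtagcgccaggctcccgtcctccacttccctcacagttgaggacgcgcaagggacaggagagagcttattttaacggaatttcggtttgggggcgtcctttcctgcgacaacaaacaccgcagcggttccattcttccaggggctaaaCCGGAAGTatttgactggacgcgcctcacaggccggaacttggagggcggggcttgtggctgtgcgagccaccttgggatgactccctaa
Mrps21: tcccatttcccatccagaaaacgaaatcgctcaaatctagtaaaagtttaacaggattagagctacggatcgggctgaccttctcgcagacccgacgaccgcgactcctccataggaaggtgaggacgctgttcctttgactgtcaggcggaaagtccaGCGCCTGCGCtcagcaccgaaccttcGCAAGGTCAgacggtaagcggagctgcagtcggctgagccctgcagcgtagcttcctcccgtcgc
Mrps11: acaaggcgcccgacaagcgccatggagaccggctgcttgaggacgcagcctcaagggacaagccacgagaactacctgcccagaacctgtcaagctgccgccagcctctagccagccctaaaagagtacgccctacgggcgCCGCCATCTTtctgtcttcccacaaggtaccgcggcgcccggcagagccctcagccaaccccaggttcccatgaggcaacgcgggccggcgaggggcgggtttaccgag
The capitals mark CCGGAAGT, the core bound by ETS factors such as GABP, in Mrps22 and Mrpl51. In Mrps21 they mark a match to the site of nuclear respiratory factor 1 and then a match on the other strand to TGACNNNGC, the core of the antioxidant response element to which CNC-Maf dimers bind. In Mrps11 they mark the YY1 site, on the other strand. Nuclear respiratory factor 1 is the product of the gene Nrf1 and a different protein from the Nrf1 of the tethered heterodimer.

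Of the 77 genes, 68 had a promoter window of 300 bases, the 250 before and 50 after the start, and were set beside all 27025 windows, both strands being searched. The site of nuclear respiratory factor 1 was in 19.1% of the 68 windows and in 4.78% of all windows, CCGGAAGT in 16.2% and 4%, and the YY1 site in 7.35% and 0.899%. By subunit the first was in 23.8% of large-subunit and 11.5% of small-subunit windows and the last in 4.76% and 11.5%. TGACNNNGC was in 19.1% and 12.5%, and CACGTG, the E-box, in 7.35% and 7.24%. The median GC content was 58.2% in the 68 windows and 52.7% in all, and its part in these shares was not tested. A match is a description of letters, and whether it goes with a change in level was not tested. The T-N1G response at 1.0 µM was higher for 9 of 13 genes with the site of nuclear respiratory factor 1 and 27 of 55 without. The counts were 6 of 11 and 30 of 57 for CCGGAAGT, and 5 of 5 and 31 of 63 for the YY1 site. They were 3 of 5 and 33 of 63 for CACGTG, and 5 of 13 and 31 of 55 for TGACNNNGC. Of all genes tested 22.9% had a higher response. Of the 68 genes, 26 (38.2%) had a gene starting within 1000 bases on the opposite strand, against 11.4% of all windows. Mrpl46 and Mrps11 start 42 bases apart, and at 1.0 µM their log2 fold changes were 1.17 and 0.30 in T-N1G cells and 0.38 and -0.53 in mock cells, with differences of 0.78 and 0.83. Mrpl32 starts 205 bases from Psma2, a subunit of the proteasome core, whose responses differed by 1.25 at 0.3 µM and 1.15 at 1.0 µM, against 0.35 and 0.52 for Mrpl32. Not all of the 26 genes moved with their neighbour. At 1.0 µM both were called in the same direction for 12 and in opposite directions for 6 in T-N1G cells, and for 7 and 4 in mock cells. In the difference of responses the counts were 6 and 0, with 1 or both not called for 20. The share over all such neighbours in the genome was not computed.

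Genes that work with the mitochondrial ribosome were described from lists, and like the 77 genes they were chosen with results of these data known. The shares of all genes to set these counts against, at 1.0 µM, are, for T-N1G cells, 37.5% raised and 38.9% lowered, for mock cells 32.4% and 37.4%, and for the difference of responses 22.9% and 22.1%. Of 12 mitochondrial translation factors, 7 were higher and 4 lower (58.3% and 33.3%) at 1.0 µM in T-N1G cells and 2 higher and 5 lower (16.7% and 41.7%) in mock cells, and 5 (41.7%) had a higher T-N1G response at either dose. Taco1, the translational activator of cytochrome oxidase subunit I, had the largest difference at 1.0 µM, 1.31, and Gfm1, an elongation factor, had 0.86 at 0.3 µM. Of 22 assembly factors, 10 had a higher and 2 a lower T-N1G response at 1.0 µM (45.5% and 9.09%), with Trub2, a pseudouridine synthase, at 0.94 and Gtpbp10, a GTPase of large-subunit assembly, at -0.60. Of 20 mitochondrial tRNA synthetases and related enzymes, 9 were lower and 5 higher in T-N1G cells at 1.0 µM (45% and 25%) and 15 lower and 1 higher in mock cells (75% and 5%). Of 10 genes for mitochondrial transcription and RNA handling, 4 (40%) had a higher T-N1G response at 1.0 µM, with Slirp, which stabilises mitochondrial messenger RNAs, at 1.51. Of 11 mitochondrial chaperones and proteases, 6 had a higher and 1 a lower response (54.5% and 9.09%), with Clpx, the unfolding subunit of a matrix protease, at 1.24.

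The nuclear genes of oxidative phosphorylation had lower medians under MG132 than the mitochondrial ribosomal protein genes. Of 77 tested, 9 were higher and 51 lower at 1.0 µM in T-N1G cells (11.7% and 66.2%, median log2 fold change -0.67), where 37.5% and 38.9% of all genes were. In mock cells 2 were higher and 65 lower (2.6% and 84.4%, median -0.91), where 32.4% and 37.4% of all genes were. The T-N1G response was higher for 23 at 0.3 µM (29.9%, against 14.2% of all genes), and higher for 22 and lower for 1 at 1.0 µM (28.6% and 1.3%, against 22.9% and 22.1%). They held 0.780%, 0.738% and 0.554% of fragments in T-N1G cells under vehicle, 0.3 µM and 1.0 µM, and 0.792%, 0.606% and 0.469% in mock cells. Cytosolic ribosomal protein genes differed from both: of 81 tested, 0 had a higher and 0 a lower T-N1G response at 0.3 µM by edgeR, with 2 higher and 1 lower at an unadjusted p under 0.05 and 0 and 1 by DESeq2, and 3 (3.7%) had a higher one at 1.0 µM, with a median difference of -0.06 and -0.03. Of 8 tested regulators of mitochondrial biogenesis, 2 (25%, against 11% of all genes) had a lower T-N1G response at 0.3 µM and 1 a higher and 3 a lower one at 1.0 µM (12.5% and 37.5%, against 22.9% and 22.1%). Esrra, a nuclear receptor of oxidative genes, had differences of -0.85 and -0.93, Gabpb1, a subunit of GABP, 0.60 at 1.0 µM, and the gene Nrf1 -0.04 and 0.01, neither called.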

How the data were processed

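Poly(A) RNA of 18 libraries was sequenced after a strand-specific kit, per the labels' protocols. The tools listed in the submitters' processing notes are Cuffdiff 2.1.1, TopHat2 2.0.8b and bcl2fastq 2.16.0.10, with the mm9 build; annotation and strand setting: not given in the sources used here. For each library the authors deposited unscaled estimated counts by gene, of which 98.16% to 98.51% were whole within 1e-06, and all were rounded here. The authors also deposited FPKM values per library after Cuffdiff's scaling, used for levels between genes, and FPKM values per group, from whose table the mm9 positions were taken as listed. The authors' scaled counts per group were not used.

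The link of Cuffdiff's replicate numbers to the numbers in the titles, of N1 to T-N1G (T-NG1 in the genotype field) and of L-MG and H-MG to 0.3 and 1.0 µM is read from the names and is not stated in the files. Genes without a Cuffdiff estimate in some libraries were left out of library sizes and tests. No pair of libraries of a group differed by so little that it could be a duplicate, the smallest chi-square per degree of freedom being 2.92.

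The quasi-likelihood F test of edgeR 4.0.16 (R 4.3.3) was used for changes, after filterByExpr and TMM scaling and with the robust option, in 1 fit of 6 group means over 13258 genes and 9 contrasts. P-values were adjusted by Benjamini-Hochberg over all genes tested. Standard errors are the size of the log2 fold change over the square root of F. All groups share 1 estimate of spread, so the wider spread at 1.0 µM enters every comparison. On simulated data of the vehicle comparison, over 12946 genes, 89 of 100 genes changed by log2 1 and 99 of 100 changed by log2 2 were recovered, with 8 false calls. Fragments are not independent molecules, since no molecular identifiers were used here.

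The genes, the lists and the rule for naming genes were chosen with earlier results of these data known. Named are the genes passing the test with the 4 largest changes in each direction, subunit and comparison, the Mrps18 paralogs, ribosomal proteins with other symbols, the 3 highest and 3 lowest by FPKM in each subunit, and the largest changes of each list. Mrpl19, Mrpl22, Mrpl27, Mrpl36, Mrpl44, Mrps7 and the neighbour Psma2 were named after their values were seen. Promoter windows are those of RefSeq on GRCm38.p6, and coding lengths are the longest coding sequence per gene in the GRCm38 annotation. No position was carried between builds.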

Additional observations from a re-analysis of the deposited data

Results flagged for a closer look

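The response to MG132 differed between the lines by the test of the difference itself for the following named genes, given as T-N1G minus mock on the log2 scale. At 0.3 µM the large-subunit genes were Mrpl51 at 1.11, Mrpl11 at 1.01, Mrpl47 at 0.87 and Mrpl10 at 0.87. The small-subunit genes at 0.3 µM were Mrps18c at 0.87, Mrps22 at 0.86, Mrps11 at 0.75 and Mrps14 at 0.63. At 1.0 µM the large-subunit genes with a higher T-N1G response were Mrpl47 at 1.48, Mrpl51 at 1.34, Mrpl16 at 1.25 and Mrpl11 at 1.09, and those with a lower one were Mrpl34 at -0.64, Mrpl40 at -0.61, Mrpl12 at -0.57 and Mrpl52 at -0.53. The small-subunit genes with a higher T-N1G response at 1.0 µM were Mrps22 at 1.31, Mrps34 at 1.14, Mrps31 at 0.99 and Mrps18c at 0.91, and those with a lower one were Mrps36 at -0.66, Mrps17 at -0.33 and Mrps25 at -0.32.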

How the results depend on the processing

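Tried were RLE scaling, totals alone, no expression filter, DESeq2 1.42.0, the replicate number as a block, only the groups compared, no libraries numbered 3 at 1.0 µM, and each library left out. Of the 143 named results, no called one reversed its direction under these, and the other calls were not checked for reversal. The large-subunit median at 1.0 µM in T-N1G cells ran over -0.06 to 0.00 leaving out each library, and the small-subunit median over 0.07 to 0.21. For T-N1G against mock under vehicle the count of genes higher was 1, and it was 2 with RLE scaling, the replicate block, DESeq2 or without the libraries numbered 3, 0 without the filter and 4 with only the groups compared, and 0 to 2 leaving out each library. The count lower was 14, 27 with only the groups compared and 7 to 18 leaving out each library. At 0.3 µM the count lower was 5, 9 with only the groups compared and 3 to 7 leaving out each library. The small-subunit median at 1.0 µM in mock cells was -0.27, -0.14 without the libraries numbered 3 and -0.35 to -0.18 leaving out each library. With totals alone the medians at 1.0 µM in T-N1G cells were -0.20 for the large and 0.012 for the small subunit, in place of -0.05 and 0.15, a setting that moved the median of all genes by -0.14. The count with a lower T-N1G response at 0.3 µM was 0, 1 with the block or only the groups compared, and 0 to 1 leaving out each library. The cause of the other shifts was not tested.

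Same-numbered libraries of different groups were more alike than others in their deviations from group means. The median correlation was 0.16 over 45 same-numbered pairs and -0.12 over the other pairs. Of the 45 pairs 35 were over 0.1, the lowest being -0.098, and 16 of 18 libraries correlated best with their own number. What libraries of a number share is not given in the sources used here, and the main fit did not include the number. With the replicate block the difference of responses gave 45 genes higher and 1 lower at 0.3 µM and 43 and 10 at 1.0 µM, and the calls of all 143 named results were kept. Of 3575 values of named genes under the alternatives, 3515 kept direction and call, 51 lost the call and 9 gained it. Calls were lost under at least 1 alternative for Mrpl48, Mrpl45 and Mrps6 under vehicle, Mrpl17 and Mrps36 between lines at 0.3 µM, Mrps14, Mrps17 and Mrps18b in the difference of responses, Mrps18b at 1.0 µM in T-N1G cells and Mrps18a at 0.3 µM in mock cells.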
